A study of Homo sapiens and synthetic construct with 14 samples.

Results

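The 21 enhancers of a benchmark reporter library, named En01 to En21, were measured here as constructs that carry the enhancer and no second element. They were chosen by name and by an empty entry for the second element, not by a measured value, and they are 21 of the 27147 constructs counted in each of 2 runs. Of the other constructs, 25712 were pairs of an enhancer and an element, and 1414 were elements with no enhancer. The study used MPRAduo, a pooled reporter assay: plasmids carry up to 2 test sequences and a barcode, and GFP messenger RNA is counted by barcode against the plasmid pool. Cells were GM12878, an established B-lymphoblastoid line, with RNA recovered 24 hours after electroporation, and the design text gives 4 biological replicates for all barcode counting. Run1 used the library called SE and run2 the library called ES, so that in a pair the element preceded the enhancer in run1 and followed it in run2. The 4 groups were GM12878 RNA and plasmid in run1, and GM12878 RNA and plasmid in run2, with 4 libraries each and no treatment other than the electroporation.

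An enhancer is a stretch of DNA that binds transcription factors and raises transcription from a promoter. In a reporter assay its activity is read as RNA made per plasmid present. Silencer elements, such as the RE1 sites bound by the repressor REST, lower output, so their effect is read beside an active enhancer, and the enhancer alone and the enhancer beside a random sequence are the 2 available baselines. The enhancers are known here by their numbers. The sources used here give no sequence, coordinate or gene for them, so none is printed.

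In both tables the columns headed plmd behaved as the numerator of the authors' log2 fold change. Over 24896 constructs that fold change had a correlation of 0.938 in run1 and 0.996 in run2 with the ratio of the plmd-headed to the cDNA-headed columns. Of its run1 values, 95.6% occur exactly in the run2 table, nearly all on other constructs. How many values would coincide by chance was not tested. The 0.938 of run1 is with counts on the same lines. Whether the run1 entries all belong to the constructs they stand beside was not tested, so the direction rests more on run2. The plmd-headed libraries were taken as RNA and the cDNA-headed libraries as plasmid, and every sign below turns if the headings are read literally. A separate table of the same series, the genome-wide library WGREST in GM12878, bears on this choice for 5 of the enhancers. Its random elements had a log2 RNA over plasmid share of −2.05 beside En02, −1.67 beside En11, −0.16 beside En09, 0.50 beside En19 and 0.85 beside En21. In the direction used here the random elements of run1 had median levels in that same order: −1.35 beside En02, −0.11 beside En11, 0.21 beside En09, 1.28 beside En19 and 1.5 beside En21. In run2 En09 and En11 changed places (−0.51 and 0.40), with En02 lowest (−2.03) and En21 highest (2.35). Over all constructs the number of barcodes had a higher correlation with the plmd-headed counts (0.891 to 0.960, log2) than with the cDNA-headed counts (0.680 to 0.807). The barcode number is headed PlasmidsBCsum and the mean of the plmd-headed columns plmean, names that go with the literal headings. The lowest plmean was 26.75 in run1 and 20 in run2. Replicate libraries correlated at 0.944 to 0.971 on the cDNA-headed side and at 0.805 to 0.932 on the plmd-headed side.

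These constructs were deeply counted. Total counts per library ran from 26597247 to 73362160 in run1 and from 53149683 to 100338164 in run2. The median over all constructs was 80 barcodes in run1 and 131 in run2. Each enhancer alone was read through 113 to 782 barcodes in run1 (median 269) and 101 to 454 in run2 (median 176). The thinnest single count was 654 on the plasmid side and 3727 on the RNA side in run1, and 915 and 2847 in run2. The 21 enhancers together took 2.67% to 2.97% of the RNA counts of a library in run1, against 1.27% to 1.32% of the plasmid counts. In run2 these shares were 1.20% to 1.52% and 0.915% to 1.03%.

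The first comparison asked how much RNA each enhancer made without a partner. The level is the log2 ratio of RNA to plasmid after TMM scaling, in which 0 is near the middle of all constructs. In run1 nearly every enhancer alone stood above that middle. By edgeR's quasi-likelihood test at an adjusted p under 0.05, 19 of 21 were higher, where 24.2% of all constructs were called higher. The other 2, En01 and En02, were lower, a call made for 20% of all constructs. Over all constructs this was 6577 higher and 5436 lower, and 4868 and 9403 with scaling on total counts, which moved the median of all constructs from −0.0012 to −0.38. The median level was 1.47, and the levels spanned 4.62, from −0.54 for En01 to 4.08 for En20.

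The strongest enhancers of run1 were En20, En21 and En19. In counts scaled to 1000000 per library (CPM), En20 gave 3869, 4952, 5017 and 4507 on the RNA side, against 277, 280, 273 and 256 on the plasmid side. Its level was 3.83, 4.19, 4.21 and 4.06 in the 4 RNA libraries, and the fitted value of 4.08 (SE 0.0854, n = 4 and 4 libraries, edgeR adjusted p = 2.5e-09) is a 16.9-fold ratio of RNA to plasmid. En20 therefore made the most RNA per plasmid in run1, though it was not the enhancer with the most RNA. That was En12, with 5100 to 5422 CPM of RNA over 1863 to 1938 CPM of plasmid, a level of only 1.47 (SE 0.0312). En21 stood at 3.77, 4.09, 4.07 and 4.02 in the 4 libraries. En19 stood at 3.61, 3.82, 3.81 and 3.69. The ranges of En20 and En21 overlapped, as did those of En21 and En19, while En19 lay clear of the next, En18, at 3.07, 3.20, 3.31 and 3.23.

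The weakest of run1 were En01, En02 and En03. En01 had levels of −0.60, −0.45, −0.56 and −0.56, and a fitted value of −0.54 (SE 0.0477, edgeR adjusted p = 1e-05), which is 1.45-fold less RNA than plasmid after scaling. En02 had levels of −0.51, −0.02, −0.77 and −0.69 and a fitted value of −0.47 (SE 0.14, edgeR adjusted p = 0.021). Its second RNA library stood apart from the other 3, with 793 CPM against 472 to 564. The call of En02 as lower was lost when cDNA-headed library 1 or 3, or plmd-headed library 1, 3 or 4, was left out, with values of −0.46 to −0.34 and edgeR adjusted p of 0.051 to 0.083. En03 had levels of 0.32, 0.39, 0.32 and 0.71, also with 1 library above the rest. Its fitted value of 0.44 (edgeR adjusted p = 0.0023) became 0.071 (edgeR adjusted p = 0.53) with libraries scaled on total counts.

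Between these ends the enhancers of run1 formed a near-continuous series. En04 to En08 stood between 0.82 (En04 and En07) and 1.21 (En08). En09, En10, En11 and En12 stood at 1.45, 1.34, 1.61 and 1.47. En13 to En16 stood at 1.93, 2.20, 2.51 and 2.44. En17 and En18 reached 3.02 and 3.17, or 8.09-fold and 9.01-fold more RNA than plasmid. Of the 20 pairs of neighbours in the order of levels, the 4 libraries of one overlapped those of the next in 15 and were separate in 5. The separate steps lay below En19, En17, En13, En11 and En03, which set apart a top group of 3, a pair (En18 and En17), a group of En15, En16, En14 and En13, En11 alone, a run of 9 from En12 to En03, and the bottom pair. The ranges leave out the spread of the plasmid side. For En11 that side had an SD of 0.086 on the log2 scale, against a gap of 0.14 to En12. The enhancers share their libraries, so a shift of a whole library widens every range. Of the 15 overlapping pairs, 6 (En20 and En21 among them) had the higher enhancer ahead in all 4 libraries, and 9 did not.

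In run2 the same enhancers spread further, and fewer lay above the middle of all constructs. By edgeR, 14 of 21 were higher, where 36.3% of all constructs were, and 5 were lower (En01 to En05), where 35.6% were. En06, at −0.11 (edgeR adjusted p = 0.22), and En11, at −0.07 (edgeR adjusted p = 0.61), passed in neither direction, though En06 was lower with total counts (−0.23, edgeR adjusted p = 0.0099). The median level was 0.51 and the span was 5.26, from −2.18 for En02 to 3.08 for En21.

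The top of run2 was held by the same 3 enhancers as in run1. En21 had levels of 3.23, 2.86, 2.84 and 3.35, and its fitted value of 3.08 (SE 0.11, edgeR adjusted p = 1.6e-13) is 8.48-fold. En20 had levels of 3.17, 2.83, 2.88 and 3.33, and En19 of 3.12, 2.82, 2.82 and 3.24. The ranges of these 3 overlapped. Library by library, En20 stood above En19 in 4 of 4, and En21 above En20 in 3 of 4. All 3 were lower in RNA libraries 2 and 3 than in 1 and 4, with the highest value in library 4, and En17, at 2.15, 1.92, 2.04 and 2.32, had its highest value there too. So had every other enhancer of run2 except En02, En03, En04, En15 and En18, so the pattern is not particular to strong enhancers.

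The weakest of run2 were En02 and En01, and here they lay far below the rest. En02 had levels of −2.28, −2.38, −1.99 and −2.09 and a fitted value of −2.18 (SE 0.0768, edgeR adjusted p = 1.5e-13), or 4.52-fold less RNA than plasmid. En01 had levels of −2.14, −2.14, −1.99 and −1.91, a range that overlapped that of En02 in part, and it stood above En02 in 3 of 4 libraries. En04 (−0.95, −1.25, −0.95 and −1.04) and En03 (−0.88, −0.97, −1.04 and −0.89) followed, with more than a log2 unit between the En04 and En01 fitted values of −1.04 and −2.05. En05, at −0.65, −0.66, −0.48 and −0.37, was the highest of those called lower. En08, at 0.23, 0.12, −0.05 and 0.47, barely passed as higher (0.20, edgeR adjusted p = 0.047). Its call was lost without cDNA-headed library 1, 2 or 4 or plmd-headed library 1 or 4, with values of 0.11 to 0.20 and edgeR adjusted p of 0.079 to 0.19. It was lost too with DESeq2's size factors (0.19, edgeR adjusted p = 0.077) and with total counts (0.077, edgeR adjusted p = 0.42).

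The order of the enhancers changed little between the runs. Across the 21 enhancers the levels of run1 and run2 had a Pearson correlation of 0.973 and a Spearman correlation of 0.958, given as a description, since the values of a run share its libraries. The order also followed the number in the name: the Spearman correlation of that number with the level was 0.990 in run1 and 0.979 in run2. The clearest departures were En11, which moved from rank 10 in run1 to rank 15 in run2, and En07, which moved from rank 17 to rank 13. En11 had levels of 1.54, 1.63, 1.55 and 1.72 in run1, above En12 in every library, and of −0.01, −0.33, −0.21 and 0.23 in run2, below every library of En12 (0.50 to 0.88). En07 had levels of 0.73, 0.72, 0.79 and 1.03 in run1 and of 0.38, 0.18, 0.19 and 0.54 in run2. As in run1, 15 of the 20 neighbouring pairs of run2 overlapped and 5 were separate, and in 9 of those 15 the higher enhancer was ahead in all 4 libraries. Level was nearly unrelated to the number of barcodes, with Pearson correlations of −0.197 and −0.072 across the 21.

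Where 0 lies on this scale depends on what the libraries are scaled on. The 651 random elements that stood without an enhancer had a median level of −0.35 in run1 and of −2.07 in run2. The median level of all pairs was 0.012 and 0.17. With the summed counts of those random elements set to 0 in place of TMM, 19 enhancers were higher and 2 lower in both runs, and the 2 lower were En01 and En02 each time. On that scale all constructs were called higher in 24.5% and lower in 17.6% of cases in run1, and in 85.3% and 2.93% in run2. The median enhancer alone then stood 1.53 above random elements alone in run1 and 2.36 above in run2. En20 stood at 4.14 in run1 (17.7-fold, edgeR adjusted p = 1.3e-07) and En21 at 4.93 in run2 (30.5-fold, edgeR adjusted p = 5.3e-19). En03, En04 and En05, lower in run2 by TMM, stood above random elements alone at 0.91, 0.81 and 1.32. En01 and En02 remained below, at −0.19 (edgeR adjusted p = 0.043) and −0.32 (edgeR adjusted p = 0.0031) in run2. For En01 this holds against the summed counts only, since its level of −2.05 lay just above the median random element alone, at −2.07.

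The second comparison set each enhancer alone against the same enhancer beside a random sequence. Whether the 2 kinds of construct differ in more than the second element was not tested, so a difference is not credited to that element alone. Libraries were scaled on the summed counts of the random elements beside that enhancer, 411 to 649 of them, except for En16, which had 32. In run1 every enhancer made more RNA per plasmid alone than beside random sequence. All 21 were called higher by edgeR, where 5.76% of the 25733 constructs tested were called higher and 5.54% lower. Over the tested constructs these were 1481 higher and 1426 lower calls, and 2248 and 543 with libraries scaled on the median ratio of the random elements, where all 21 enhancers alone were again higher. The differences ran from 0.65 for En01 to 2.49 for En18 on the log2 scale, with a median of 1.48.

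The largest differences of run1 belonged to strong enhancers. En18 alone lay above its random partners by 2.47, 2.52, 2.66 and 2.46 in the 4 RNA libraries, a fitted 2.49 (SE 0.188, edgeR adjusted p = 1.7e-05) or 5.62-fold. En21 lay above by 2.33, 2.45, 2.50 and 2.51, a fitted 2.45 (SE 0.0567, edgeR adjusted p = 9.5e-09). En19 lay above by 2.30, 2.44, 2.40 and 2.35. The RNA libraries of these 3 lay close together, while the plasmid libraries of En18 were spread (12.8 to 24.0 CPM), and leaving out 1 library moved its value between 2.36 and 2.67. En20, the enhancer with the highest level, had a smaller difference of 1.73, 1.84, 1.83 and 1.78, or 3.47-fold. Its random partners were themselves the highest of any enhancer, with a median level of 2.24.

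At the low end En01 alone exceeded its random partners by 0.48, 0.71, 0.76 and 0.65 (fitted 0.65, SE 0.0595, edgeR adjusted p = 7.4e-05). En02 exceeded them by 0.51, 1.13, 0.49 and 0.41 (fitted 0.66, SE 0.139, edgeR adjusted p = 0.014), again with the second library apart. Its call was lost without cDNA-headed library 4 (0.65, edgeR adjusted p = 0.052). So 2 enhancers with less RNA than plasmid after scaling had still more RNA alone than beside a random element. Across the 21 enhancers the difference and the level had a Pearson correlation of 0.900 in run1 and 0.602 in run2, where both measures share the same counts of the enhancer alone.

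The other enhancers of run1 lay between these ends. The smallest differences after the bottom pair were those of En07 at 1.06, En03 at 1.12, En09 at 1.15 and En12 at 1.20. The libraries of En03 ran from 0.87 to 1.39, while En12 had libraries of 1.13, 1.22, 1.21 and 1.22. En04, En05, En06, En08, En10 and En11 stood between 1.35 (En10) and 1.57 (En11). En13 stood at 1.79, and En14 to En17 stood between 2.02 (En16) and 2.20 (En14).

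In run2 the enhancer alone was no longer above its random partners throughout. By edgeR 11 of 21 were higher, where 22.7% of the constructs tested were called higher, 7 were lower, where 18.6% were, and 3 passed in neither direction. The median difference was 0.28. The highest was that of En12, at 1.12, 0.87, 0.87 and 1.25 in the 4 RNA libraries (fitted 1.03, SE 0.0671, edgeR adjusted p = 4.6e-10). En09 (1.02, 0.78, 0.76 and 1.11) and En10 (1.05, 0.72, 0.76 and 1.13) came next, at fitted 0.92 each. These 3 enhancers of middle level stood above the strongest enhancers, whose differences were 0.82 for En19, 0.49 for En20 and 0.70 for En21. The other enhancers called higher were En06 (0.49), En07 (0.73), En13 (0.23), En17 (0.38) and En18 (0.49).

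The 7 enhancers called lower in run2 were En01 to En05, En11 and En15. En05 had the largest decrease, at −0.81, −0.76, −0.84 and −0.40 (fitted −0.70, SE 0.123, edgeR adjusted p = 0.00017), or 1.62-fold less RNA alone than beside random elements. En11 followed at −0.51, −0.75, −0.91 and −0.29 (fitted −0.60, SE 0.124, edgeR adjusted p = 0.00071). In both, every library lay below 0. En02 stood at −0.41, −0.64, −0.32 and −0.26 (fitted −0.40, edgeR adjusted p = 0.00013). En01 stood at −0.26, −0.38, −0.28 and −0.06, En03 at −0.12, −0.30, −0.38 and −0.12, and En04 at −0.18, −0.53, −0.32 and −0.21. En15 stood at −0.13, −0.38, −0.41 and −0.32, and its call was marginal (fitted −0.31, edgeR adjusted p = 0.0497).

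Of these 7, only En05 and En11 kept the call when each library was scaled on the median ratio of the random elements in place of their sum. On that scale 11 were higher, 2 lower and 8 in neither class (6867 higher and 3309 lower of all constructs tested, against 5835 and 4776), with En05 at −0.55 (edgeR adjusted p = 0.0019) and En11 at −0.47 (edgeR adjusted p = 0.0056). En01, En02, En03, En04 and En15 were then at −0.02, −0.17, −0.06, −0.10 and −0.22. En03 also lost its call without cDNA-headed library 1 or 3 (−0.20 each). En15 lost it without cDNA-headed library 2, 3 or 4 or plmd-headed library 2, 3 or 4 (−0.34 to −0.26). The 3 that passed in neither direction were En08 at 0.05, En14 at 0.21 and En16 at 0.28, and En16 rests on 32 random elements. En16 passed without plmd-headed library 2 (0.39, edgeR adjusted p = 0.0499).

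The place of each enhancer within the spread of its random partners shows how far apart the 2 baselines were. In run1 between 92.1% (En02) and 100% of the random constructs had a lower level than the same enhancer alone, with a median of 99.1%. No random partner of En13, En16, En19, En20 or En21 reached its enhancer alone. For En20 that was 649 of 649 constructs, which had a median level of 2.24 and an SD of 0.331 around it, against 4.08 for En20 alone. The typical SD of random constructs beside an enhancer was 0.562, and the typical distance of the enhancer alone from their median was 1.70. In run2 no enhancer alone lay beyond all of its random partners. Between 14.1% (En05) and 96.0% (En09) of random constructs were lower, with a median of 74.3%. The share exceeded 90% for 4 enhancers, En07, En09, En10 and En12, and was under 50% for 7. The typical SD was 0.662 and the typical distance was 0.42.

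Random elements kept much of the order of the enhancers beside them. The level alone and the median level of the random partners had a Pearson correlation of 0.955 in run1 and 0.946 in run2 over the 21 enhancers. The random medians ran from −1.41 beside En01 to 2.24 beside En20 in run1, a span of 3.65 against 4.62 for the enhancers alone. In run2 they ran from −2.03 beside En01 to 2.54 beside En20, a span of 4.57 against 5.26. Set against random elements with no enhancer, the pairs differed between the runs. In run1, 13 of the 21 random medians lay above the median of the elements alone and 8 lay below it, the lowest beside En01 at −1.06. In run2 all 21 lay above it, from 0.038 beside En01 to 4.61 beside En20. The median pair stood 0.24 above random elements alone in run1 and 2.10 above in run2.

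The other element classes were described in the same way, by the share of a class with a lower level than the enhancer alone. In run1 the median share over enhancers was 99.4% for REST elements, 98.8% for GFI1, 97.6% for YY1, 100% for CTCF, 99.2% for CTCF_TAD and 80.3% for the positive controls. REST and GFI1 are repressors, YY1 can activate or repress, and CTCF binds insulators. In run2 the shares were 76.4% for REST, 58.3% for GFI1, 30.1% for YY1, 52.1% for CTCF, 81.2% for CTCF_TAD and 25% for the positive controls. A class was described beside an enhancer only where it had at least 10 constructs, which left En16 out for REST. The enhancer alone lay above the median REST pair for 20 of 20 enhancers so described in run1 and for 17 of 20 in run2. Against the positive controls it lay above for 20 of 21 in run1 and for 1 of 21 in run2.

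The last comparison tested the change between the runs itself, with 1 model over all 16 libraries. The difference between the enhancer alone and its random partners was smaller in run2 for 18 of 21 enhancers, where 3.57% of the 25733 constructs tested changed that way and 12.2% the other way. No enhancer alone changed the other way. The median change was −1.55. En15 changed most, from 2.08 in run1 to −0.31 in run2, a change of −2.38 (SE 0.173, edgeR adjusted p = 3.2e-08). En11 changed by −2.18 (SE 0.17, edgeR adjusted p = 7.5e-08) and En05 by −2.09 (SE 0.153, edgeR adjusted p = 3.3e-08). These are the enhancers that went from a 4.22-fold, 2.97-fold and 2.63-fold excess alone to values below 0.

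The strong enhancers changed by less than these 3 while staying above their random partners in both runs. The change was −2.0 for En18, −1.75 for En21, −1.70 for En17, −1.55 for En19 and −1.31 for En20. En14 and En16, called higher in run1 and not called in run2, changed by −2.0 and −1.74, and En08 by −1.42. The bottom pair changed by −0.89 (En01) and −1.07 (En02), En03 by −1.35 and En04 by −1.70. The smallest called change was that of En10, at −0.43 (SE 0.109, edgeR adjusted p = 0.01). En06 changed by −0.97 and En13 by −1.56.

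The 3 enhancers without a called change were En07, En09 and En12. En12 stood at 1.20 in run1 and 1.03 in run2, a change of −0.16 (SE 0.093, edgeR adjusted p = 0.27). En09 changed by −0.23 (SE 0.0944, edgeR adjusted p = 0.12) and En07 by −0.34 (SE 0.121, edgeR adjusted p = 0.069). All 3 passed as lower when single libraries were left out: En07 and En09 without plmd-headed library 1 of run1, and En07, En09 and En12 without plmd-headed library 4 of run2, with values of −0.43 to −0.24. En07 also passed with the random elements' median in place of their sum (−0.39, edgeR adjusted p = 0.035). En07 and En09 passed with a replicate block, a term for the library number (edgeR adjusted p = 0.034 and 0.031). Both passed too with z from the 2 run fits (normal z test, adjusted p = 0.0071 and 0.021). That z test uses the estimates and SE of the edgeR fits and makes no allowance for the small number of libraries. En07, En09, En10 and En12 were the enhancers that stood above 90% of their random partners in run2. That share and the change rest on the same run2 counts, so it is not a separate observation. Across the 21 the differences of the 2 runs had a Pearson correlation of 0.257 and a Spearman correlation of 0.142, against 0.973 and 0.958 for the levels.

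An enhancer alone has no order of elements, so a change in its own level between the runs does not measure order. By TMM all 21 levels were lower in run2, by a median of −1.13, from −1.92 for En04 to −0.55 for En07, where 15.3% of all constructs were lower and 17.5% higher. Scaled on the random elements without an enhancer, 16 were higher and none lower, with a median of 0.72, where 85.1% of all constructs were higher and 0.18% lower. The direction of that change thus follows the reference. En07 was the enhancer least reduced on the first scale and most raised on the second (1.30), and En04 was the most reduced on the first and, at −0.05 (edgeR adjusted p = 0.66), the lowest on the second. The plasmid-side counts of the 21 enhancers kept their relative order between the runs, at a lower share of the library in run2. Their mean cDNA-headed CPM had a log2 correlation of 0.999 across the 21, and their barcode numbers one of 0.971. En18, the thinnest, had 12.8 to 24.0 CPM of plasmid in run1 and 14.0 to 19.3 in run2, and En12 had 1863 to 1938 and 1464 to 1641. The sources used here do not say whether constructs without a partner were prepared once or separately for the SE and ES libraries. Run, library and the order of the pairs used as reference cannot be told apart in this design.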

How the data were processed

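Barcode counts of 4 cDNA-headed and 4 plmd-headed libraries per run were used as deposited by the authors, 1 line per construct. Per the file headers the tables also carry the authors' deposited log2 fold change, used for direction only, and a mean signal deposited by the authors, which equals the mean of the plmd-headed columns. The sources used here do not name the software behind these columns. In each run 22 lines without an assigned element were dropped (0.964% to 1.06% of counts in run1, 1.39% to 1.73% in run2), leaving 27147 constructs. A minimum mean count of 20 removed none, since the lowest plmean as deposited was 26.75 in run1 and 20 in run2. If these columns are RNA, constructs with little RNA may have been left out before deposit, which was not tested.

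Levels and differences were fitted in edgeR 4.0.16 (R 4.3.3) over all constructs and tested by quasi-likelihood, with Benjamini-Hochberg adjustment over the whole fit and a threshold of 0.05. The level compared plmd-headed with cDNA-headed libraries under TMM scaling. The difference from random elements used the summed counts of the random elements beside the same enhancer as library offsets, so constructs without an enhancer stayed out of it. The change between runs was an interaction term over 16 libraries. Each SE was the absolute estimate divided by the square root of its F statistic. Values in single libraries set each plmd-headed library against the mean of the 4 cDNA-headed ones, and an SD over them leaves out the spread of the cDNA-headed side. Alternatives were DESeq2 1.42.0, other scalings, other minimums, a replicate block and leaving out each library. Scripts were tested on simulated counts.

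Values per library were given for the 3 highest and 3 lowest enhancers by level, the 3 largest differences from random in each direction, and enhancers called in opposite directions or by the interaction test. Others were given by value or range, and some were given per library after their values were seen. The members, lists and comparisons were chosen with earlier results of these data known. Reads from PCR are not independent molecules.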

Additional observations from a re-analysis of the deposited data

Results flagged for a closer look

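The difference between an enhancer alone and its random partners changed between the runs in 18 enhancers by a test of that change (edgeR's interaction term). The log2 changes, run2 minus run1, were −0.89 for En01, −1.07 for En02, −1.35 for En03, −1.70 for En04, −2.09 for En05 and −0.97 for En06. They were −1.42 for En08, −0.43 for En10, −2.18 for En11, −1.56 for En13, −2.0 for En14 and −2.38 for En15. They were −1.74 for En16, −1.70 for En17, −2.0 for En18, −1.55 for En19, −1.31 for En20 and −1.75 for En21. The share of all constructs called in that direction was 3.57%.

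In 8 of 126 groups of 4 libraries, 1 library stood apart from the other 3, where chance gives about 6.3. The groups share libraries, so they are not independent. Of the differences from random elements in run1, plmd-headed library 2 of En02 was high at 1.13 (the others 0.41 to 0.51), library 1 of En12 was low at 1.13 (the others 1.21 to 1.22) and library 1 of En15 was high at 2.34 (the others 1.96 to 2.02). The run1 level of En03 was high in plmd-headed library 4, at 0.71, where the others lay at 0.32 to 0.39. En03 also had a high cDNA-headed library 1 in run1, at 466 CPM against 436 to 439. In run2 cDNA-headed library 2 was flagged as low for 3 enhancers: 436 CPM for En06 (the others 492 to 503), 1464 for En12 (the others 1616 to 1641) and 197 for En20 (the others 230 to 236). It was the lowest cDNA-headed library for all the other enhancers too, except En15, En16 and En18, so the low value is not particular to these 3.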

How the results depend on the processing

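With the headings read literally every sign turned, in 21 of 21 enhancers in each comparison: 2 enhancers would be higher and 19 lower in run1 (median −1.47) and 5 higher and 14 lower in run2 (−0.51), 0 would be above and 21 below their random partners in run1 (−1.48), 7 above and 11 below in run2 (−0.28), 21 levels higher and 0 lower in run2 than in run1 (1.13), and 18 differences higher and 0 lower (1.55). The following 2 scalings were chosen after seeing the data. On random elements without an enhancer the median levels were 1.53 in run1 and 2.36 in run2, with 2 lower in run2, where En03, En04, En05, En06 and En11 turned to 0.91, 0.81, 1.32, 1.74 and 1.78. The change in level between runs then had 16 higher, 0 lower and a median of 0.72, and it turned for En01 (0.295), En02 (0.10), En03 (0.41), En05 (0.066), En06 (0.72), En07 (1.30), En08 (0.79), En09 (0.86), En10 (0.94), En11 (0.11), En12 (1.0), En13 (0.40), En14 (0.63), En15 (0.11), En16 (0.66), En17 (0.89), En18 (0.82), En19 (1.06), En20 (0.77) and En21 (0.88). On the summed enhancers alone, which puts their own mean change near 0, 3 were higher and 8 lower (median −0.097), and En07 (0.48), En09 (0.044), En10 (0.11), En12 (0.18), En17 (0.066), En18 (0.015), En19 (0.24) and En21 (0.065) turned. Of all 27147 constructs, 15715 were higher and 639 lower on that scale, with a median of 1.16. With total counts the median was 1.10 for the run1 level and −0.82 for the change in level. TMM over all pairs in place of the random partners has no reference per enhancer, so it gives the level again and not a difference from random partners. By it 2 enhancers were lower in run1, En01 (−0.55) and En02 (−0.48), where 5313 of the 25733 constructs tested were lower. In run2 En06 (−0.21) and En15 (0.72) had the opposite sign to their difference. With the median of the random partners the run1 median was 1.77, and 2 were lower in run2. With TMM over all pairs, again as a level, En11 was not called in run2 (−0.17), and En14 (0.96) and En16 (1.22) were called higher. The cause of each of these changes was not tested.

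Leaving out 1 library at a time gave 19 higher and 1 to 2 lower levels in run1 (median 1.46 to 1.56), and 13 to 14 higher and 5 lower in run2 (0.46 to 0.58). Over all constructs, 5710 to 7186 levels were then higher and 4156 to 5731 lower in run1. In run2 these were 9473 to 9727 and 9238 to 9537. Differences from random partners were higher in 20 to 21 enhancers in run1 (1.42 to 1.52), and higher in 11 to 12 and lower in 5 to 7 in run2 (0.19 to 0.39). Over all constructs tested, 983 to 1702 differences were then higher and 512 to 1968 lower in run1. In run2 these were 5415 to 5681 and 4027 to 4727. Changes between runs were lower for 21 levels (−1.20 to −1.04) and for 18 to 21 differences (−1.61 to −1.49). Over all constructs tested, 3635 to 4536 levels and 631 to 1154 differences were lower. In run2 the level of En11 ran from −0.17 to 0.024, above 0 without plmd-headed library 2, and the difference of En08 from −0.043 (without plmd-headed library 4) to 0.12. Deviations of same-numbered libraries of the 2 sides correlated at 0.003 to 0.011 in run1 and 0.009 to 0.027 in run2. Those of differently numbered libraries correlated at −0.011 to 0.006 and −0.017 to 0.009. All were small, and whether the numbers pair the 2 sides was not tested further. With the replicate block, calls were 19 higher and 2 lower levels in run1, 14 and 5 in run2, and 21 and 0, then 11 and 6, differences from random partners. With the block, 21 levels and 20 differences were lower in run2 than in run1. Over all constructs the block gave 1061 higher and 642 lower differences in run1, against 1481 and 1426. The block gave 5728 and 4738 in run2, and 3603 levels and 601 differences lower in run2 than in run1. With it En15 was no longer called in run2 (−0.31), and the changes of En07 (−0.34) and En09 (−0.23) were, as they were with z from the 2 run fits. DESeq2's test changed no call of an enhancer alone. The median of all constructs moved from 0.076 to 1.93 in run2, and from 0.12 to 1.98 for the change between runs, with scaling on random elements without an enhancer. The minimum on plmd-headed columns removed nothing. En16 has no value in run2 when only random elements with a mean count of at least 100 are used.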

Other observations

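Plasmid-side counts of the 2 runs had higher correlations across constructs with a single test sequence than across pairs. For the 651 random elements without an enhancer, mean log2 cDNA-headed CPM of run1 and run2 had a Pearson correlation of 0.993, and barcode numbers one of 0.970. For the 11846 random elements beside an enhancer these correlations were 0.864 and 0.866. The 21 enhancers alone had 0.999 and 0.971. These are correlations across constructs, which are not independent replicates, and they depend on how widely each set is spread.

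The 5 enhancers shared with the WGREST library ranked differently beside random elements in other cell lines. En09 stood above En19 in HepG2 (0.001 against −0.46), K562 (0.31 against −0.95) and SK-N-SH (−0.048 against −0.76), and below it in GM12878 (−0.16 against 0.50), as log2 RNA over plasmid shares. In all 4 lines En02 was lowest, En11 next and En21 highest. The difference between lines was not tested, and no enhancer alone was analysed in those lines here.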
